A study of Mus musculus with 4 samples.

Results

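The clustered protocadherins are cell surface adhesion proteins encoded by 58 genes in 3 arrays, alpha, beta and gamma, on mouse chromosome 18. The members were taken by symbol from a deposited table of 44788 genes, which gave 14 alpha, 22 beta and 22 gamma genes. RNA was sequenced from bone marrow stromal cells, adherent precursors of bone and fat cells, of Setd2 fl/fl mice on the C57BL/6J strain. In these mice loxP sites flank part of Setd2, the gene of the methyltransferase that trimethylates lysine 36 of histone H3. In 2 libraries the cells had received a lentivirus with Cre recombinase, which deletes the floxed part, and in 2 libraries a lentivirus with GFP. All libraries shared the floxed alleles, passage 2 and puromycin at 2 µg/ml for 4 days. The sources used here do not give the promoter driving Cre or the number of mice. A GFP virus does not control for Cre itself, so loss of Setd2 and the presence of Cre cannot be told apart. The labels do not say whether replicate libraries are from different cultures or mice. The p-values set a group difference only against the spread among these libraries, and that spread may be technical.

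Clustered protocadherins are best known from neurons. Each cell there uses a few members, chosen by promoter, and the resulting proteins bind only matching partners on other cells, which lets a neuron recognise its own branches. Each alpha or gamma mRNA joins a large exon of its own, which encodes the extracellular cadherin repeats, to constant exons that all members of the cluster share and that encode the common cytoplasmic tail. Beta genes have no shared constant exons and are transcribed separately. The last members of the alpha and gamma clusters, Pcdhac1, Pcdhac2, Pcdhgc3, Pcdhgc4 and Pcdhgc5, are called C-type and are known to be used less randomly than the others. The genome-folding protein CTCF, the ring complex cohesin, the silencer SMCHD1 and the DNA methyltransferase DNMT3B are known regulators of promoter choice in the mouse.

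Library totals lay between 12371994 and 14315903 counts, and a count of 3, taken as the detection floor, corresponded to 0.207 to 0.255 CPM, the usual rate of read counts relative to the scaled size of the library. Setd2 had 551 and 468 counts in the Cre libraries, against 1400 and 1250 counts in the GFP libraries, lower in both Cre libraries as their labels say (log2 fold change -1.60, standard error 0.08, edgeR quasi-likelihood test, adjusted p = 3.65e-15). Leaving out the second GFP library gave -1.59 for Setd2 (adjusted p = 0.124). One control library stood apart in its share of ribosomal RNA: Rn18s-rs5 held 1.35% and 1.21% of the counts in Cre replicates 1 and 2, 2.07% in GFP replicate 1 and 7.45% in GFP replicate 2. Without GFP replicate 2, edgeR's quasi-likelihood test called 0 of all genes tested, with 2197 at an unadjusted p under 0.05. The main values are also given without this library.

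The cells carried stromal and macrophage RNA and almost no RNA of mature neurons. The neuronal nuclear protein gene Rbfox3 and the synaptic gene Snap25 had 0 counts in all 4 libraries, which allows up to 0.255 CPM in the shallowest library. The synaptic vesicle gene Syt1 had 4 and 2 counts in the Cre libraries and 6 and 2 counts in the GFP libraries, and the Schwann cell gene Sox10 had 1 and 0, against 0 and 4. Only the tubulin gene Tubb3 was abundant among 7 neuronal markers, and it rose with Cre (log2 fold change 0.40). The 8 stromal markers summed to 19085 and 20128 CPM in the Cre libraries, against 15227 and 15104 CPM in the GFP libraries, and 3 of them rose and 1 fell. The 7 macrophage markers summed to 2224 and 2216 CPM with Cre, against 1890 and 1945 CPM with GFP, and 2 of them rose and 1 fell. Most of the stromal sum came from Col1a1 (mean 9901 CPM with Cre, 6896 CPM with GFP) and Col1a2 (8681 and 7116 CPM). Most of the macrophage sum came from Lyz2 (1691 and 1398 CPM). The median log2 fold change was -0.013 over the stromal markers, with 4 of 8 above 0. Over the macrophage markers it was 0.16, with 5 of 7 above 0. The shares called, 4 of 8 and 3 of 7 markers, compare with 6.97% of all tested genes, and none of these markers passed when GFP replicate 2 was left out. Fewer cells of a type and less RNA per cell cannot be told apart in such bulk samples.

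In short, beta genes stood lower with Cre, gamma genes stood slightly higher without any passing the test, and alpha genes were near the limit of detection. The summed beta level was 41.8 and 42.6 CPM in the Cre libraries, against 52.4 and 55.7 CPM in the GFP libraries. This was 42.2 ± 0.596 CPM with Cre and 54.1 ± 2.30 CPM with GFP (mean ± SD, n = 2 each), a ratio of 0.781. The summed gamma level was 408 and 407 CPM with Cre, against 378 and 386 CPM with GFP, a ratio of 1.07. The alpha members together reached only 10.3 and 9.47 CPM with Cre, against 12.03 and 10.8 CPM with GFP, a ratio of 0.866. Neither the beta nor the gamma sums overlapped between the groups, and neither did the alpha sums. Among single tested genes such a separation was common, with 24.5% above and 25.5% below with Cre. Before scaling, the alpha sums overlapped, at 149 and 137 counts with Cre, against 158 and 127 counts with GFP. No test was made of a sum over members. Without GFP replicate 2 the log2 ratio was -0.31 for beta, against -0.36 with all libraries, 0.11 for gamma, against 0.09, and -0.28 for alpha, against -0.21.

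**Figure D1:**
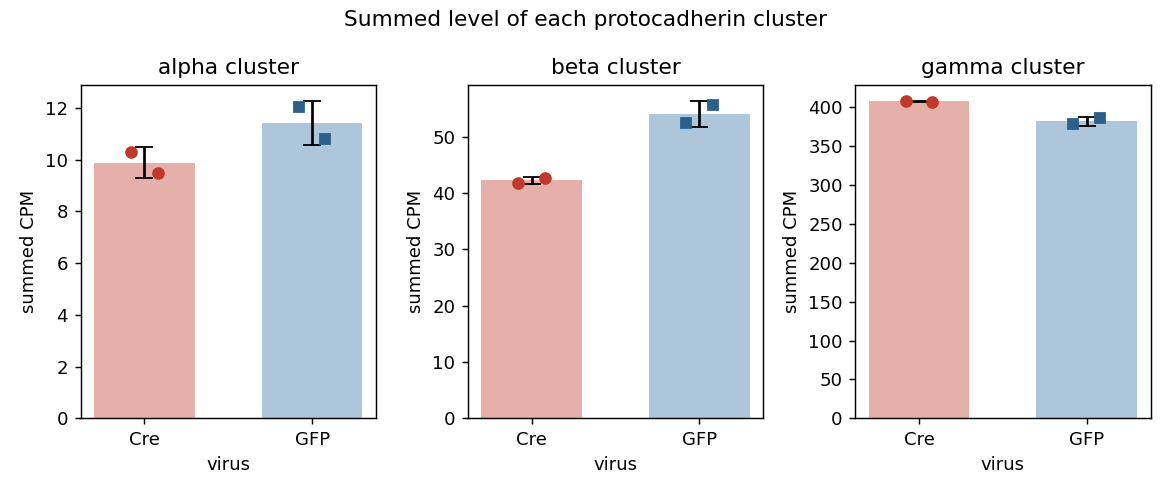
Summed CPM of the alpha, beta and gamma clusters in Cre (left) and GFP (right) cells; bars show means, error bars the SD (n = 2 each), and points the single libraries. The beta sum is lower with Cre (42.2 against 54.1 CPM) and the gamma sum is higher (408 against 382 CPM).

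Of the 58 members, 40 had enough counts to be tested, and 2 of them passed an adjusted p of 0.05, both beta genes and both lower with Cre. Over all 14483 genes tested 6.97% passed, 3.74% higher and 3.22% lower, so that 2 of 40 is close to this background. Within the clusters the calls were 0 of 4 tested alpha genes, 2 of 14 tested beta genes and 0 of 22 tested gamma genes. DESeq2 called 0 of 29 members for which it gave an adjusted p, and over all genes it also called fewer than edgeR did. Of the 40 members, with or without an adjusted p, 2 had an unadjusted p under 0.05 in DESeq2. In edgeR's quasi-likelihood test 6 of the 40 did, where 3031 of all 14483 tested genes did.

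**Figure D2:**
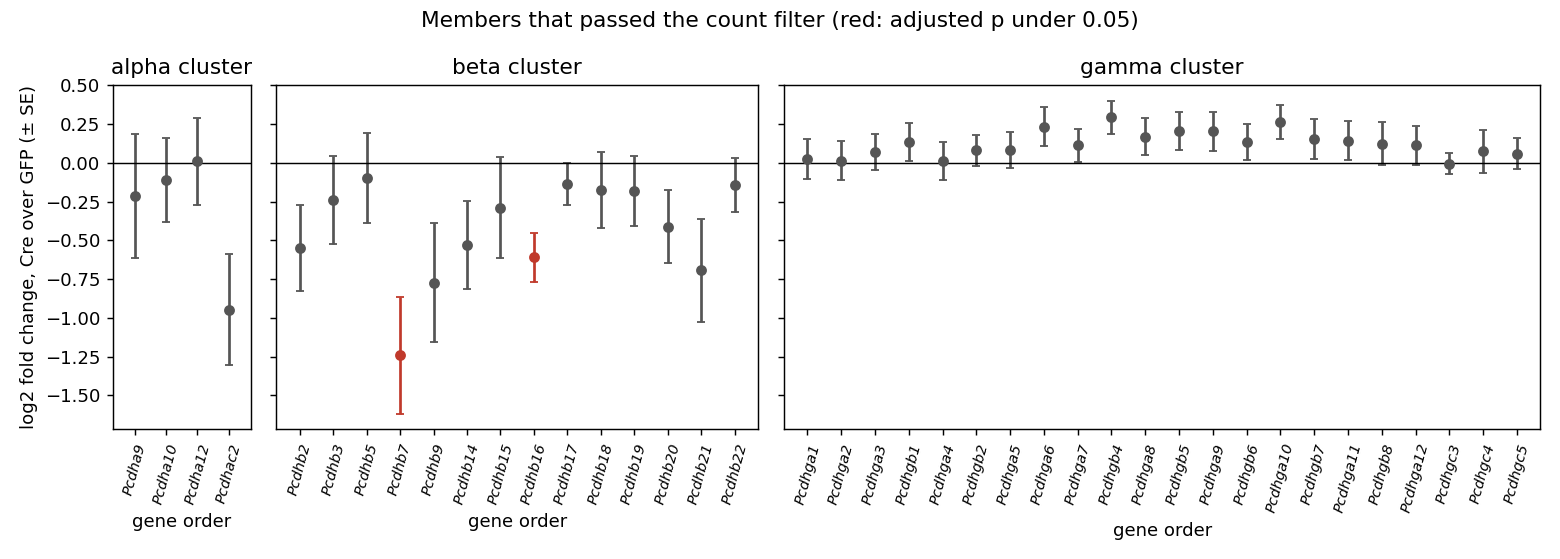
Log2 fold change, Cre over GFP, with its standard error for the 40 tested members in chromosomal order (alpha, beta, gamma). Red marks Pcdhb7 and Pcdhb16, which passed; all 14 tested beta genes lie below 0 and 21 of 22 tested gamma genes above it.

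The beta cluster spans positions 37264998 to 37521419 of chromosome 18 (RefSeq genes on GRCm38). Pcdhb7, the seventh beta gene in order, had 12 and 8 counts in the Cre libraries, against 20 and 21 counts in the GFP libraries. In CPM this was 0.692 ± 0.196 with Cre and 1.66 ± 0.188 with GFP (mean ± SD, n = 2 each). It fell with Cre, with a log2 fold change of -1.24 and a standard error of 0.37 (edgeR quasi-likelihood test, adjusted p = 0.0396). Both Cre libraries lay below both GFP libraries. With the replicate number as a block the adjusted p was 0.0603 and the log2 fold change -1.24. Leaving out any 1 of the 4 libraries ended the call, with log2 fold changes from -1.55 to -0.98 and adjusted p from 0.0956 to 0.375. It stood at -1.13 without GFP replicate 2 (adjusted p = 0.322).

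Pcdhb16, in the later part of the cluster, had 74 and 76 counts with Cre, against 107 and 90 counts with GFP. Its level was 5.19 ± 0.0928 CPM with Cre and 7.90 ± 0.339 CPM with GFP (mean ± SD, n = 2 each), with no overlap. It fell with Cre by 0.61 on the log2 scale with a standard error of 0.16 (edgeR quasi-likelihood test, adjusted p = 0.0157). Here too leaving out any 1 library ended the call, with log2 fold changes from -0.65 to -0.56 and adjusted p from 0.0751 to 0.289. It stood at -0.65 without GFP replicate 2 (adjusted p = 0.285). DESeq2 gave -0.61 (adjusted p = 0.276), and scaling by library size alone gave an adjusted p of 0.0641. Scaling by library size alone also ended the call of Pcdhb7 (adjusted p = 0.0782). Beside these falls, the macrophage and stromal marker sums given above were higher with Cre, mostly through Lyz2, Col1a1 and Col1a2. The single markers went both ways. The 5 endothelial markers summed to less with Cre, at 8.24 and 8.92 CPM, against 10.1 and 9.37 CPM with GFP. Of the 4 that were tested 0 were called, and 2 had a log2 fold change above 0. The part of these cell types in the beta result was not tested.

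The other beta genes pointed the same way without passing. All 21 beta genes with a count had a lower mean CPM with Cre, and the remaining gene, Pcdhb1, had 0 counts in all libraries. Of the 25476 genes in the table with at least 1 count, 51.8% had a lower mean with Cre. In 12 of the 22 beta genes both Cre libraries lay below both GFP libraries and in 0 above, against 20.9% below and 18.7% above over all genes with a count. The 12 include Pcdhb6, Pcdhb8, Pcdhb11 and Pcdhb12, which were under the count filter. Pcdhb6 had 1 and 1 counts with Cre, against 3 and 1 with GFP, and Pcdhb8 had 2 and 2, against 5 and 2. In each of these genes a Cre count equalled or exceeded a GFP count, so their separation rested on the scaling. Among the 14 tested beta genes 8 lay below without overlap in CPM, where the share over all tested genes was 25.5%. Of the 8, Pcdhb19, Pcdhb14 and Pcdhb9 also had a Cre count that equalled or exceeded a GFP count. Pcdhb19 had 47 and 38 counts with Cre, against 43 and 40 with GFP. Pcdhb14 had 30 and 19, against 32 and 29, and Pcdhb9 had 13 and 10, against 21 and 13. Their separation too rested on the scaling. Over the 14 tested beta genes the log2 fold change ranged from -1.24 to -0.10. Its median was -0.35, while that of all tested genes was -0.0045. The median of the tested beta genes was -0.40 without GFP replicate 2.

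**Figure D3:**
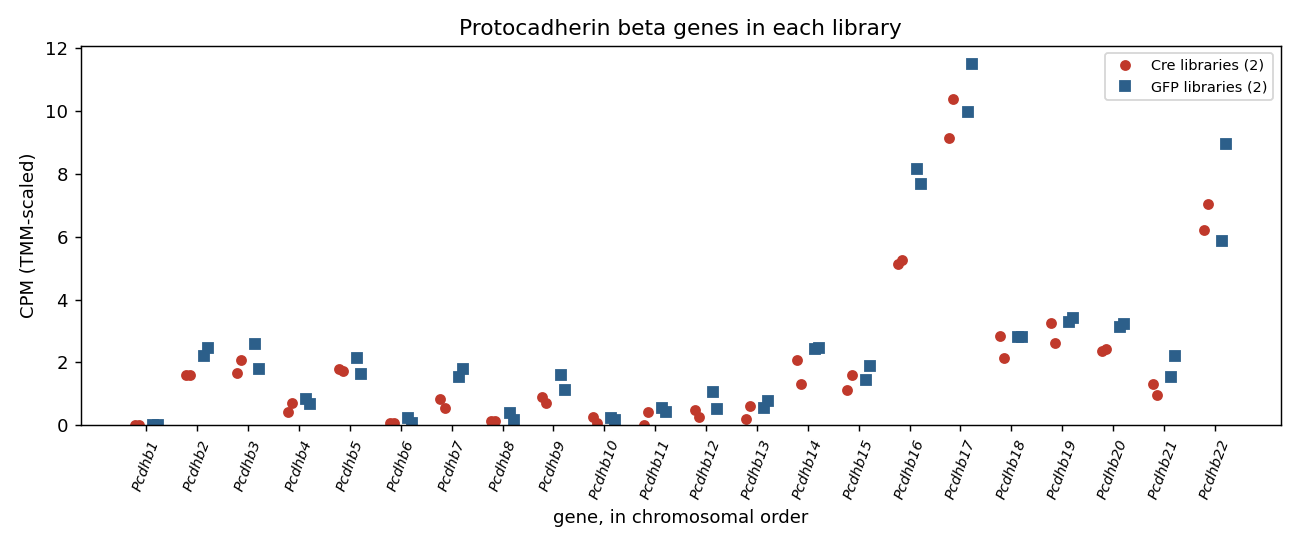
CPM of the 22 beta genes in chromosomal order, with Cre libraries (circles) left of GFP libraries (squares) for each gene. Pcdhb16, Pcdhb17 and Pcdhb22 stand highest, and in 12 of the 22 genes both Cre libraries lie below both GFP libraries. Of these, Pcdhb6, Pcdhb8, Pcdhb11 and Pcdhb12 had too few counts for a test.

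Beta expression was uneven along the array. The 3 members of highest CPM, Pcdhb17, Pcdhb22 and Pcdhb16, are, by symbol, at places 17, 22 and 16 of the gene order and together made up 49.5% of the beta CPM. Pcdhb17 had 132 and 150 counts with Cre, against 131 and 135 counts with GFP. These are 9.13 and 10.4 CPM with Cre and 9.97 and 11.5 CPM with GFP, which overlap (log2 fold change -0.13, standard error 0.14). Pcdhb22 had 6.23 and 7.05 CPM with Cre, against 5.86 and 8.94 CPM with GFP, and the wide GFP pair enclosed both Cre values. Its log2 fold change, -0.14 with the full set of libraries, was 0.18 once GFP replicate 2 was left out.

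The next beta genes in CPM were lower, and none of them passed. Pcdhb19 had 3.25 and 2.63 CPM with Cre, against 3.27 and 3.41 CPM with GFP, so the groups were separated only narrowly. Pcdhb20 had 2.35 and 2.42 CPM with Cre, against 3.12 and 3.24 CPM with GFP (log2 fold change -0.41, standard error 0.23), without overlap. Pcdhb18 had 2.84 and 2.14 CPM with Cre, against 2.82 and 2.81 CPM with GFP, and the groups overlapped. Pcdhb14 had 2.08 and 1.31 CPM with Cre, against 2.44 and 2.47 CPM with GFP (log2 fold change -0.53, standard error 0.28). Pcdhb21 (log2 fold change -0.69), Pcdhb9 (-0.77) and Pcdhb2 (-0.55) had 23 counts or less per Cre library. When 1 library at a time was left out, the log2 fold change ranged from -0.95 to -0.41 for Pcdhb21, from -0.997 to -0.47 for Pcdhb9, from -0.63 to -0.47 for Pcdhb2 and from -0.89 to -0.24 for Pcdhb14. Pcdhb3 (-0.24), Pcdhb15 (-0.29) and Pcdhb5 (-0.10) overlapped between the groups. Leaving out GFP replicate 2 gave -0.47 for Pcdhb3, -0.098 for Pcdhb15 and -0.27 for Pcdhb5, and Pcdhb15 was at -0.046 without Cre replicate 1.

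Per kilobase of exon, Pcdhb17 stood first with 2.20 CPM, followed by Pcdhb16 with 1.253 CPM, Pcdhb22 with 1.14 CPM and Pcdhb20 with 0.782 CPM, as means of all libraries. Pcdhb16 and Pcdhb22 change places when the length is the RefSeq span of the gene, at 1.24 and 2.29 CPM per kilobase. Across the 22 genes, Spearman's rho between order along the array and level per kilobase was 0.483, a description over genes of the same 4 libraries. The 8 beta genes under the count filter, Pcdhb1, Pcdhb4, Pcdhb6, Pcdhb8, Pcdhb10, Pcdhb11, Pcdhb12 and Pcdhb13, had at most 10 counts per Cre library and at most 14 counts per GFP library. Apart from Pcdhb13, they lie in the first 12 places of the array. Pcdhb11 had 0 and 6 counts with Cre, against 7 and 5 counts with GFP, and Pcdhb12 had 7 and 4, against 14 and 6.

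Beta genes resemble each other in sequence, but most of their length is distinct. Of the 50-base stretches of each beta transcript in GENCODE M21, between 0 and 11.99% also occurred in another member, with a median of 4.26%. This share was 8.57% for Pcdhb7 and 2.05% for Pcdhb16. How reads that fit several genes were counted is not given in the sources used here. For Pcdhb12, 63.5% of the exon bases lie under exons of the opposite-strand gene Gm37446, and the library kit marks no strand. The table gives its Pcdhb17 row the NCBI number of Pcdhb14, of which Pcdhb17 is an older synonym in RefSeq, so the identity of that row is uncertain.

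The gamma cluster, at positions 37661775 to 37841873 of chromosome 18 (GRCm38), held the most abundant member of all. Pcdhgc3, a C-type gene known to be expressed outside the nervous system too, had 1592 and 1485 counts with Cre, against 1393 and 1262 counts with GFP. Its level was 106 ± 5.33 CPM with Cre and 107 ± 1.03 CPM with GFP (mean ± SD, n = 2 each). The Cre values enclosed the GFP values, and the log2 fold change was -0.0045 with a standard error of 0.07 (edgeR quasi-likelihood test, adjusted p = 0.981). Pcdhgc3 alone made up 27.0% of the gamma CPM. Exons of the opposite-strand gene BC037039 lie over 28.4% of its exon bases.

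The gamma counts may not be independent of each other. All 22 members carry 2116 exon bases in common, and between 27.8% and 66.8% of a member's exon bases are shared with another member. No gamma gene had fewer than 129 and 138 counts in Cre replicates 1 and 2, or fewer than 110 and 103 counts in GFP replicates 1 and 2. These lowest counts belonged to Pcdhgc4 or Pcdhgb8, and GENCODE M21 lists Pcdhgb8 as a polymorphic pseudogene. Counted once, the lowest count amounts to between 48.7 and 65.2 counts per kilobase of shared exon. Multiplied by the 22 members it amounts to 1071 to 1435 counts per kilobase. The counts above the lowest, each per kilobase of the member's own exons, sum to between 726 and 978. Whether the authors counted shared reads in every member, divided them or left them out is not given in the sources used here. Gamma members are therefore described both as deposited and as the part above the lowest member of the same library.

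As deposited, 21 of 22 gamma genes had a log2 fold change above 0, and in 14 both Cre libraries lay above both GFP libraries, against 24.5% of all tested genes. Where reads of the common exons were counted, they enter all 22 genes, so these counts are not separate observations. The median log2 fold change was 0.12, and 0.16 without GFP replicate 2. None passed edgeR's quasi-likelihood test, and DESeq2 called 0. In edgeR's test 2 had an unadjusted p under 0.05, where 3031 of all 14483 tested genes did. The 2 genes were Pcdhgb4, with 19.3 and 20.7 CPM in Cre libraries against 15.9 and 16.7 CPM in GFP libraries (log2 fold change 0.30, adjusted p = 0.0920), and Pcdhga10. Pcdhga10 had 18.7 and 18.7 CPM with Cre, against 15.4 and 15.7 CPM with GFP (log2 fold change 0.26, standard error 0.11, adjusted p = 0.144). In both genes the groups were separated by more than the spread of either pair. The exons of the opposite-strand gene Gm26672 lie over 55.2% of the exon bases of Pcdhga10, and of Pcdhgb4 none lie under such a gene.

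The counts above the lowest member were also summed by gamma type. The 12 A-type genes together had 56.9 and 55.0 CPM with Cre, against 52.5 and 48.0 CPM with GFP, a ratio of 1.11. The 7 B-type genes had 42.7 and 39.6 CPM with Cre, against 33.0 and 36.1 CPM with GFP, a ratio of 1.19. The 3 C-type genes had 112 and 103 CPM with Cre, against 108 and 109 CPM with GFP, a ratio of 0.990. The A-type and B-type sums did not overlap between the groups, while the C-type sums did. These parts were not tested, since the subtracted count is itself a measured value with counting error.

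**Figure D4:**
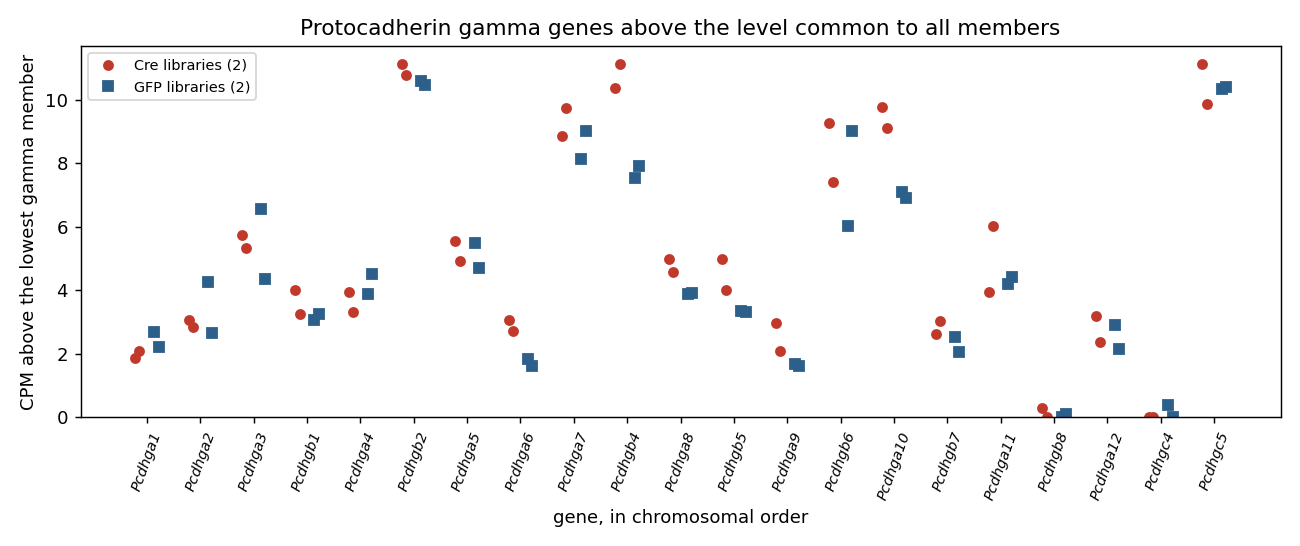
CPM of gamma genes above the lowest gamma member of the same library, in chromosomal order, without Pcdhgc3 (93.1 to 101 CPM on this scale); Cre libraries are circles on the left and GFP libraries squares on the right of each gene. Pcdhgb4, Pcdhga10 and Pcdhga6 are higher with Cre, the first gene Pcdhga1 is lower, and Pcdhgb8 and Pcdhgc4 stay near 0. Pcdhgb8 and Pcdhgc4 held the lowest counts, which were subtracted, so their place near 0 follows from the subtraction.

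Ratios of single gamma genes on this scale spread further. Pcdhgb4 had 10.4 and 11.1 CPM above the lowest member with Cre, against 7.53 and 7.92 CPM with GFP, a ratio of 1.39. Pcdhga10 had 9.76 and 9.12 CPM with Cre, against 7.08 and 6.90 CPM with GFP, a ratio of 1.35. Pcdhga6 had 3.04 and 2.70 CPM with Cre, against 1.83 and 1.62 CPM with GFP. All of these pairs were separated. The first gene of the array was lower with Cre on this scale, from few counts: Pcdhga1 had 27 and 30 counts above the lowest member with Cre, against 35 and 26 counts with GFP. In CPM this was 1.87 and 2.07 with Cre, against 2.66 and 2.21 with GFP. As deposited it had 10.8 and 11.6 CPM with Cre, against 11.04 and 10.99 CPM with GFP, which overlap. In 9 of the 22 gamma genes both Cre libraries lay above both GFP libraries on this scale, 4 of A-type and 5 of B-type, and in 1, Pcdhga1, below. Over all tested genes, as deposited, 24.5% lay above and 25.5% below, and no such share was computed for counts above a lowest member.

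The other abundant gamma genes were close between the groups. Pcdhgb2 had 20.1 and 20.3 CPM with Cre, against 19.0 and 19.2 CPM with GFP as deposited (log2 fold change 0.08, standard error 0.10). Pcdhgc5, a C-type gene, had 20.1 and 19.4 CPM with Cre, against 18.7 and 19.2 CPM with GFP (log2 fold change 0.06). Pcdhga7 had 17.8 and 19.3 CPM with Cre, against 16.5 and 17.8 CPM with GFP, and the groups overlapped in part. Pcdhgb6 had 18.2 and 16.9 CPM with Cre, against 14.4 and 17.8 CPM with GFP, with an overlap and a log2 fold change of 0.13, which was 0.29 once GFP replicate 2 was left out. Pcdhgc4, a C-type gene known for a role in neuron survival, had 8.93 and 9.54 CPM with Cre, against 8.75 and 8.77 CPM with GFP, at the common level of the cluster. The other 14 gamma genes ranged from 9.20 to 15.5 CPM with Cre and from 8.37 to 14.9 CPM with GFP.

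Per kilobase of its own exons, Pcdhgc3 had 28.9 CPM above the lowest member, as the mean of all libraries. Next came Pcdhgb2 with 3.89 CPM, Pcdhga10 with 3.14 CPM and Pcdhgb6 with 3.09 CPM per kilobase. On the same scale Pcdhga9 had 0.601 CPM, Pcdhgb8 0.0362 CPM and Pcdhgc4 0.0274 CPM. Pcdhgb8 and Pcdhgc4 held the lowest counts, which were subtracted, so their low values here follow from the subtraction. Order along the array and the level per kilobase had a Spearman's rho of -0.143 over the 22 genes, as a description. No A-type or B-type gene exceeded the level of Pcdhgb2.

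The alpha cluster, at positions 36930285 to 37188897 of chromosome 18 (GRCm38), was barely detected. Its 14 members summed to 149 and 137 counts in the Cre libraries, against 158 and 127 counts in the GFP libraries. All members share 2860 exon bases, and the lowest member had 5 and 5 counts with Cre, against 6 and 4 counts with GFP. Pcdhac1, a C-type gene, was at this lowest count in every library, and 7 of the 14 genes were within 2 counts of it throughout. Counted once, the lowest alpha count comes to between 1.40 and 2.10 counts per kilobase of shared exon. Multiplied by the 14 members it comes to between 19.6 and 29.4, and the counts above the lowest sum to between 26.3 and 31.1 per kilobase of the members' own exons.

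Pcdha10, Pcdha12, Pcdha9 and Pcdhac2 were the alpha genes with enough counts for a test. Pcdha10 had 30 and 28 counts with Cre, against 31 and 23 counts with GFP, and Pcdha12 had 30 and 25, against 24 and 23. Both overlapped in CPM, with log2 fold changes of -0.11 and 0.01 and standard errors of 0.27 and 0.28. Pcdha9 had 14 and 11 counts with Cre, against 15 and 10 counts with GFP. Its CPM overlapped too, with a log2 fold change of -0.21 and a standard error of 0.40.

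Pcdhac2, the C-type gene nearest the alpha constant exons, known in mouse serotonin neurons for axon spacing, had 11 and 13 counts with Cre, against 19 and 21 counts with GFP. Its CPM did not overlap, at 0.761 and 0.898 with Cre and 1.45 and 1.79 with GFP. The log2 fold change was -0.95 with a standard error of 0.36 and did not pass (edgeR quasi-likelihood test, unadjusted p = 0.0130, adjusted p = 0.111). Without GFP replicate 2 it was -0.79. Above the lowest member, Pcdhac2 had 6 and 8 counts with Cre, against 13 and 17 counts with GFP. Pcdha4, with 11 and 8 counts with Cre and 9 and 9 counts with GFP, and Pcdha5, with 9 and 8, against 9 and 5, were the highest of the alpha genes under the filter. The 10 genes under the filter had between 4 and 11 counts in each library.

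The 14 tested genes beside or between the clusters held no call, and 3 had an unadjusted p under 0.05. Taf7, a gene of the general transcription factor TFIID, lies between the beta and gamma clusters. It had 3.94 and 4.70 CPM with Cre, against 4.79 and 4.85 CPM with GFP (log2 fold change -0.16, standard error 0.19), without overlap. Before scaling Taf7 overlapped, at 57 and 68 counts with Cre, against 63 and 57 counts with GFP. Diaph1, the formin gene just beyond the gamma cluster, had 96.3 and 97.9 CPM with Cre, against 87.6 and 94.4 CPM with GFP (log2 fold change 0.09, standard error 0.07), also without overlap. In 9 of the 14 both Cre libraries lay above both GFP libraries and in 1, Taf7, below. Over all tested genes 24.5% lay above and 25.5% below. The median over the 14 genes was 0.08, and 11 of them had a log2 fold change above 0. DESeq2 called 0 of 13 with an adjusted p.

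Of 29 genes known to regulate the clusters, 2 fell with Cre and none rose, a share of 6.90% against 6.97% of all tested genes. In edgeR's quasi-likelihood test 11 of the 29 had an unadjusted p under 0.05, where 3031 of all 14483 tested genes did. In 15 both Cre libraries lay below both GFP libraries and in 5 above, against 25.5% below and 24.5% above over all tested genes. Smchd1, whose protein silences clustered protocadherins in the mouse, had 62.1 and 55.9 CPM with Cre, against 71.6 and 78.3 CPM with GFP. It fell by 0.34 on the log2 scale with a standard error of 0.07 (edgeR quasi-likelihood test, adjusted p = 0.00336), and by 0.28 without GFP replicate 2 (adjusted p = 0.307). Tet1, a gene of an enzyme that oxidises methylated cytosine, had 31 and 23 counts with Cre, against 47 and 40 counts with GFP, and fell by 0.90 on the log2 scale (adjusted p = 0.0222). Ctcf had 42.3 and 41.0 CPM with Cre, against 49.5 and 47.9 CPM with GFP, and did not pass (log2 fold change -0.23, standard error 0.08, adjusted p = 0.0712). The cohesin gene Rad21 was at -0.19 (adjusted p = 0.0821). Dnmt3b, with 32 and 20 counts with Cre and 26 and 16 counts with GFP, overlapped. The median of the 29 was -0.07. Among 24 tested genes of protocadherin cleavage and signalling, such as the protease gene Adam10, none passed edgeR's test, and DESeq2 called 0. In edgeR's test 5 of the 24 had an unadjusted p under 0.05, where 3031 of all 14483 tested genes did.

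Protocadherins and large cadherins outside the clusters went both ways. Of 14 tested genes 3 rose and 3 fell, a share of 42.9% against 6.97% of all tested genes, with a median log2 fold change of -0.19. Pcdh20 had 56 and 59 counts with Cre, against 15 and 20 counts with GFP, and rose by 1.49 on the log2 scale with a standard error of 0.26 (edgeR quasi-likelihood test, adjusted p = 0.000348). Pcdh1 rose (log2 fold change 0.47), with 505 and 497 counts in the Cre libraries against 310 and 311 counts in the GFP libraries, and Pcdh7 rose by 0.27. Pcdh18 fell (log2 fold change -0.77), with 358 and 321 counts with Cre, against 521 and 474 counts with GFP. The atypical cadherin genes Fat1 (-0.25) and Fat4 (-0.24) fell. Of 12 tested cadherin and catenin genes, Cdh24 (0.78) and the plakoglobin gene Jup (0.37) rose and none fell, a share of 16.7% against the same 6.97%. Without GFP replicate 1 or without GFP replicate 2, none of the 10 genes called in these lists passed. Without GFP replicate 2 the log2 fold changes of Pcdh20 and Pcdh18 were 1.79 and -0.75. Those of Pcdh1, Pcdh7, Cdh24 and Jup were 0.56, 0.31, 0.83 and 0.40, and those of Tet1, Fat1 and Fat4 were -0.93, -0.17 and -0.20. The calls of Smchd1 (-0.27), Tet1 (-0.70), Fat1 (-0.15) and Fat4 (-0.19) also ended without Cre replicate 2, and those of Pcdh7 (0.21) and Fat4 (-0.29) without Cre replicate 1.

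**Figure D5:**
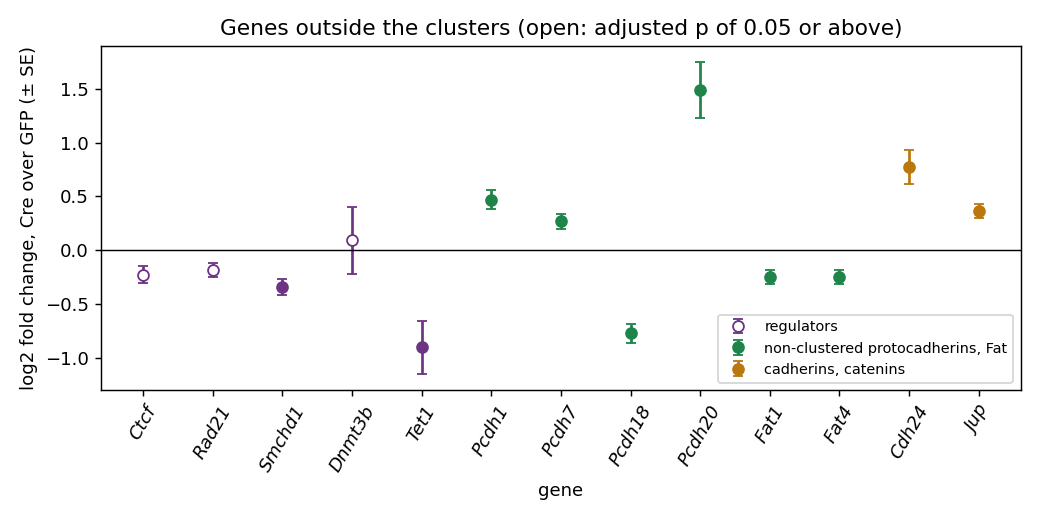
Log2 fold change, Cre over GFP, with standard error for genes outside the clusters, coloured by list; filled points passed an adjusted p of 0.05. Pcdh20 (1.49), Cdh24, Pcdh1, Jup and Pcdh7 are above 0, and Tet1, Pcdh18, Smchd1, Fat1 and Fat4 are below it.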

How the data were processed

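The authors deposited whole-number read counts per gene for 4 libraries, without normalization, for libraries that, per the labels' protocols, were prepared from 1 µg of total RNA with a TruSeq kit. HISAT2 and GRCm38 are the aligner and build named in the submitters' processing notes. The sources used here do not give the counting program, annotation, strand setting or treatment of shared reads. Groups and replicate numbers came from the labels. Counts were tested with edgeR 4.0.16 in R 4.3.3 after filterByExpr (minimum count 10, minimum total 15), with TMM scaling, the quasi-likelihood F-test and Benjamini-Hochberg adjustment over 14483 genes. CPM uses TMM-scaled library sizes. The floor covers counting error alone, as no molecular identifiers were used. The script was also run on simulated counts. RefSeq (GRCm38.p6) gave gene order and positions, and GENCODE M21 gave exons. The table's NCBI number matched RefSeq for 57 of the 58 members, and Pcdhb17 was placed by symbol. Of the gene lists, 4 symbols were found under older names. Members and lists were chosen with earlier results of these data known. Named in full were called members, the 6 of highest mean CPM per cluster and the C-type genes, and of the lists called genes with Ctcf, Smchd1, Dnmt3b and Rad21. Other members given with values were chosen after their values were seen. Alternatives were other scalings, DESeq2 1.42.0, limma-voom (limma 3.58.1), other filters, a replicate block, robust dispersion, messenger RNA alone, and leaving out each library.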

Additional observations from a re-analysis of the deposited data

How the results depend on the processing

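At 2 libraries a group the calls depended on the settings, and the depth limits most alpha and many beta genes. The number of all genes called, 1009, was 530 with scaling by library size alone, 376 in DESeq2, 30 without a filter on low counts and 0 to 516 when 1 library was left out. The number of members called, 2, was 0 with scaling by library size alone, in DESeq2 (which gave Pcdhb7 no adjusted p), without a filter and without any 1 library (0 to 0), and 1 with the replicate block, where Pcdhb7 was lost. The number of members called stayed at 2 with limma-voom, robust dispersion, median-of-ratios scaling and a minimum of 1 CPM in 2 libraries. Of all genes 829 passed with the block, and same-numbered libraries did not deviate together over genes (r = -0.019). This r rests only on the difference between the 2 libraries of each group. It cannot decide whether same-numbered libraries are paired. The 10 calls in the lists of other genes became 6 in DESeq2, 0 without a filter and 0 to 8 without 1 library. The log2 ratio of the beta sum, -0.36, was -0.42 without its highest member and between -0.40 and -0.31 without 1 library. That of the gamma sum, 0.09, was 0.13 with scaling by library size alone, 0.13 without Pcdhgc3, 0.08 with shared counts taken once and 0.079 to 0.11 without 1 library. The alpha ratio, -0.21, ranged from -0.28 to -0.13. The cause of these shifts was not tested. Of the 40 tested members 27 kept their sign under each alternative that gave them a value, and DESeq2 gave an adjusted p for only 29 members and the filter at 1 CPM kept 39. The other 13, none of which had passed, changed sign when a library was left out, with log2 fold changes from -0.23 to 0.034 for Pcdha10, -0.12 to 0.14 for Pcdha12, -0.40 to 0.022 for Pcdha9, -0.38 to 0.012 for Pcdhb18, -0.43 to 0.18 for Pcdhb22, -0.47 to 0.062 for Pcdhb3, -0.27 to 0.12 for Pcdhb5, -0.028 to 0.083 for Pcdhga1, -0.052 to 0.093 for Pcdhga2, -0.013 to 0.17 for Pcdhga3, -0.046 to 0.072 for Pcdhga4, -0.018 to 0.29 for Pcdhgb6 and -0.050 to 0.046 for Pcdhgc3. Pcdhgc3 also stood at 0.028 with scaling by library size alone, 0.0047 without a filter and 0.00063 with a minimum of 1 CPM in 2 libraries. Messenger RNA alone and shared counts taken once were chosen after the data were seen. With messenger RNA alone the same number of members, 2, passed.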
